A study of Oryza sativa with 6 samples.

Results

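Short unbranched laterals, called S-type, were compared with nodal roots of rice (Oryza sativa, genotype label Mulai). Of the 6 libraries of the study, 4 carry this comparison: 1 library each of control nodal, salt nodal, control S-type and salt S-type roots. The genes described are those that differed in the same direction under both treatments, with a value of at least 50 in the highest of these 4 libraries. Of 37942 gene models, 16602 reached that minimum. In S-type roots 7905 of them were higher under both treatments and 6899 were lower under both, which gives 14804 genes, while 1798 had no shared direction.

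Salt-treated plants received 50 mM NaCl for 7 days, and control plants received none. All plants grew in a 12 h day at 30°C and a 12 h night at 25°C. The 2 L-type libraries, from the longer laterals that branch, entered the shared fit and are quoted for orientation. Whether a single set of plants gave all root types, how many plants were pooled and which stretch of a root was taken are not in the labels.

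Nodal roots arise from the shoot base and form the thick axes of a rice root system, with wide xylem vessels and a cortex that opens into aerenchyma. S-type laterals are thin, stay short and do not branch. The exodermis and endodermis, layers whose walls carry Casparian strips, hold the transporters that pass silicon, manganese and other nutrients from the outside to the stele.

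Values are fragments per gene multiplied by 1 factor per library, as deposited, and are called scaled fragments here. Between 6229661 and 8711710 fragments fell in genes of each of the 4 libraries. Since each group is 1 library, the fit takes its error from how far a root type difference varied between treatments, not from replicates. That error is shared by nodal, S-type and L-type roots and is drawn toward the error of other genes. A p-value therefore sets the S-type difference against how well all root type differences repeat between control and salt. A gene whose L-type value moved can fail although its S-type to nodal ratio repeated. Intervals on the ratio of a single pair of libraries cover counting error only. In RNA of mixed root tissue, fewer cells of a type and less RNA per cell cannot be told apart.

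Of 20136 genes tested with limma, 5456 (27.1%) were higher in S-type roots and 5630 (28.0%) were lower, at a Benjamini-Hochberg adjusted p under 0.05. Of the called genes, 1250 were at least 4-fold higher and 1538 at least 4-fold lower. By ratio alone, 2601 of the 16602 genes (15.7%) were at least 2-fold higher in S-type roots under both treatments, and 2622 (15.8%) were at least 2-fold lower. The fit called 2558 of the former and 2563 of the latter. It used the same libraries, and genes chosen for a shared direction under both treatments are likely to pass it. These calls are therefore no separate support. Under both treatments, 120 genes were at least 16-fold higher and 165 at least 16-fold lower.

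The 2 treatments use separate libraries on both sides of the ratio. Across the 16602 genes the control and the salt ratio had a Pearson correlation of 0.927 and a Spearman correlation of 0.925, as a description over genes, which are not replicates. Just inside the minimum, Os01g0392100 had 45.2 and 29.0 scaled fragments in control and salt nodal roots and 50.2 and 41.4 in S-type roots. Just outside it, Os01g0383900 had 29.5 and 49.8 in nodal and 7.71 and 22.5 in S-type roots.

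**Figure D1:**
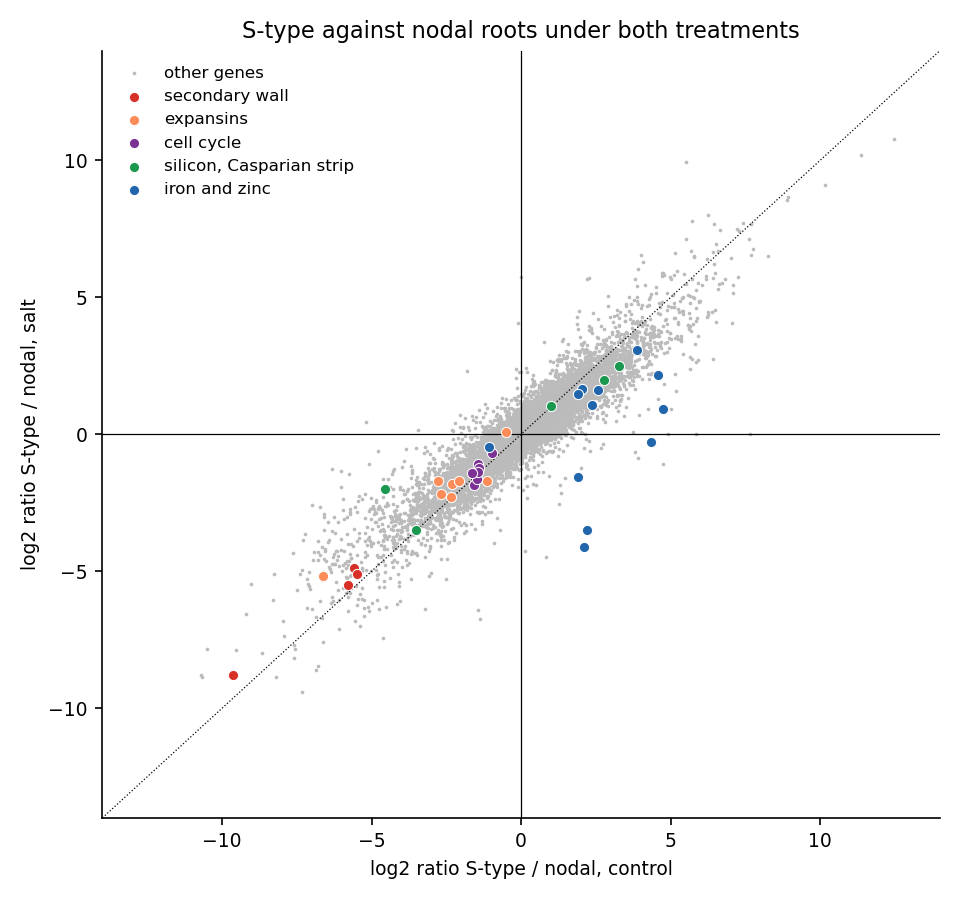
Each point is 1 of the 16602 genes, placed by its log2 ratio of S-type over nodal roots in control (x axis) and in salt (y axis); colours mark members of 5 gene lists with at least 50 in the highest library, and the dotted line marks equal ratios. Most genes lie near the dotted line, the secondary wall genes lie far to the lower left, and NAS1, NAS2 and NAAT1 of the iron list lie below the line with ratios of opposite sign.

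Of the gene lists, the one furthest below nodal roots was that of the genes that build the lignified secondary wall. All 4 list members with a checked name were called lower, too few to set against the 28.0% of all tested genes. The median log2 difference of these members was -5.48, against -0.004 over all tested genes. Here and below, lists and members were chosen with earlier results of these data known, so their shares are no separate support. CESA4 (Os01g0750300, chromosome 1, 31422946 to 31428670, build IRGSP-1.0), CESA7 and CESA9 encode the cellulose synthase subunits of that wall. CESA4 had 2281 scaled fragments in control nodal and 1785 in salt nodal roots, against 46.3 and 60.3 in S-type roots. For CESA4 limma gave a log2 difference of -5.24 (SE 0.23, adjusted p = 0.000235). CESA7 fell from 2154 and 1469 to 47.6 and 42.3, and CESA9 from 1817 and 1359 to 32.1 and 28.8. The 3 subunits thus fell by a like amount, with log2 differences between -5.66 and -5.24.

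BC1 (Os03g0416200, chromosome 3, 17260407 to 17266217) encodes the COBRA-like protein whose loss gives brittle culms. It had 796 and 440 scaled fragments in control and salt nodal roots and no fragment in either S-type library. Against a floor of 3 fragments per library it was at least 206-fold lower in control and at least 163-fold lower in salt. L-type roots lay between, with 13.8 and 11.96 scaled fragments of BC1 and 317 and 463.5 of CESA4.

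Monolignol synthesis supplies the lignin of such walls. Of its 11 members with a checked name 9 were tested, 3 were higher and 2 lower in S-type roots, near the 27.1% and 28.0% over all tested genes, and the median was 0.12. 4CL3 was higher by 0.55 (SE 0.19, adjusted p = 0.0498), a call lost under 10 of the 16 alternative fits, among them edgeR (adjusted p = 0.0534), DESeq2 (0.0614) and the fit without a treatment term (0.289). CAD2 was higher by 0.82, or by 0.66 (adjusted p = 0.0507) without the control S-type library. Within the family of 4-coumarate:CoA ligases, members went opposite ways. 4CL5 (Os08g0448000) had 500 and 304 scaled fragments in nodal and 1579 and 1437 in S-type roots, a log2 difference of 1.93 (SE 0.38, adjusted p = 0.00664). 4CL4 (Os06g0656500) had 983 and 689 in nodal and 387 and 336 in S-type roots, a difference of -1.20 (SE 0.16, adjusted p = 0.00167). PAL1, a phenylalanine ammonia-lyase at the entry of the pathway, was among the most abundant members, with 23851 and 21663 in nodal and 17742 and 11512 in S-type roots. Its difference of -0.68 (SE 0.22, adjusted p = 0.0389) passed the test but lost it without any 1 of the 4 libraries of the comparison (-0.88 to -0.45).

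**Figure D2:**
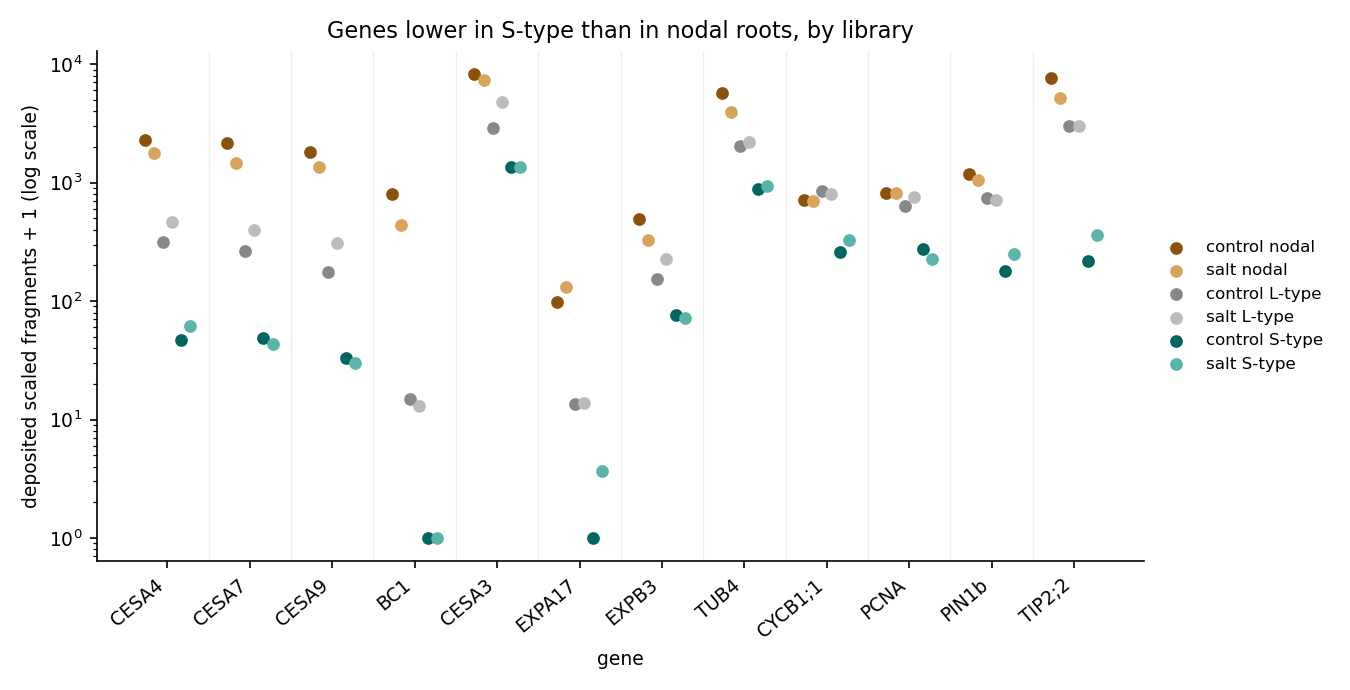
Scaled fragments plus 1 on a log axis in each of the 6 libraries for 12 genes lower in S-type than in nodal roots; each point is 1 library, brown for nodal, grey for L-type and green for S-type. In every gene both S-type points lie below both nodal points, BC1 has no fragment in S-type roots, and the L-type points of CYCB1;1 lie at the nodal level.

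Genes of the primary wall were lower too, by smaller amounts. All 6 members of the primary wall list were called lower, against 28.0% of all tested genes, with a median of -1.41. CESA3 (Os07g0424400, chromosome 7, 13741533 to 13747205) had 8258 and 7360 scaled fragments in nodal and 1359 and 1353 in S-type roots. Its log2 difference of -2.54 (SE 0.23, adjusted p = 0.000551) was the largest of the list, while CESA5 differed by -0.52 (SE 0.15, adjusted p = 0.0277). CESA5 lost its call without the control nodal, the control S-type or the salt S-type library, with differences of -0.34, -0.45 and -0.54. CESA1, CESA6 and CESA8 lay between -1.50 and -1.36. CSLF6, which makes the mixed-linkage glucan of grass walls, differed by -0.86, and by -0.72 (adjusted p = 0.05) without the control nodal library.

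Of 8 expansins, the proteins that loosen walls during growth, 7 were called lower, against 28.0% of all tested genes. The list's median was -2.17. EXPA17 (Os06g0108600, chromosome 6, 511889 to 512791), an expansin of root hairs, had 97.3 and 131 scaled fragments in nodal roots and 0 and 2.70 in S-type roots. In control that is at least 25.2-fold lower, and in salt the log2 ratio was -5.16 with a 95% interval from -7.89 to -4.03. The EXPB genes neighbour each other on chromosome 10, and EXPB2, EXPB3, EXPB4 and EXPB6 were all lower, by -2.46 to -1.45. EXPA2 was the exception, with 154 and 177.5 in nodal and 108 and 186 in S-type roots (log2 difference -0.23, adjusted p = 0.392).

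Beta-tubulins, which form the microtubules that guide cellulose synthases and separate chromosomes, were taken up after TUB4 (Os01g0805900) had been seen among the most abundant lower genes. All 7 members with a checked name were called lower, against 28.0% of all tested genes, with a median of -2.04. Both the count and the median include TUB4, whose direction was known before the list was made. TUB4 had 5709 and 3963 scaled fragments in nodal and 890 and 938 in S-type roots. TUB8 showed the largest difference, -2.80 (SE 0.23), and TUB7 the smallest, -0.91 (SE 0.18). TUB7 lost its call without the control nodal (-0.66) or the control S-type library (-0.63).

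Genes of DNA replication and mitosis were lower in S-type roots. All 7 cell cycle members were called lower, against 28.0% of all tested genes, with a median of -1.43. They ranged from -1.72 for PCNA to -0.85 for CDKB1;1, whose call was lost without the control nodal library (-0.82). PCNA (Os02g0805200), the sliding clamp of DNA replication, had 818 and 817 scaled fragments in nodal and 274 and 227 in S-type roots, a log2 difference of -1.72 (SE 0.15, adjusted p = 0.000551). CYCB1;1 (Os01g0805600), a mitotic cyclin, had 707 and 697 in nodal and 258 and 329 in S-type roots. Summed over 4 mitotic markers (CYCB1;1, CYCB2;1, CYCB2;2 and CDKB2;1), nodal roots had 2144 and 2151, S-type roots 790 and 876, and L-type roots 2374 and 2327. In S-type roots the division markers were thus lower along with wall, tubulin and expansin genes, and their part in those results was not tested. In L-type roots the summed markers lay above the nodal values. Of the tubulins with a checked name, only TUB5 was near nodal roots there, with 2418 and 2254 against 2382 and 2251. TUB1, TUB2, TUB4, TUB6, TUB7 and TUB8 were below nodal roots under both treatments, TUB4 with 2046 and 2202 against 5709 and 3963. CESA4 was below too, with 317 and 463.5 against 2281 and 1785. How these L-type values relate to division was not tested.

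Most auxin genes tested were lower too. Of 10 members 7 were tested, 6 were lower and none was higher, against 28.0% and 27.1% of all tested genes, with a median of -2.17. The remaining tested member, PIN9, was not called (-0.65, adjusted p = 0.641), with log2 ratios of 1.28 in control and -2.55 in salt. PIN1b (Os02g0743400), a carrier that exports auxin from cells, had 1185 and 1052 scaled fragments in nodal and 179 and 250 in S-type roots, a log2 difference of -2.41 (SE 0.19, adjusted p = 0.000416). PIN1a and PIN2 differed by -1.80 and -2.17, and IAA11 and IAA13, repressors of auxin signalling, by -2.25 and -1.53. QHB (Os01g0854500), a homeobox gene of the quiescent centre in the root tip, was rare in all libraries, with 13.03 and 13.27 in nodal and 0 and 1.80 in S-type roots. Its call (-3.09, SE 0.63, adjusted p = 0.00789) was lost without the control nodal library, where the adjusted p was 0.0857. The 3 untested members, WOX10, WOX11 and PIN10a, had fewer than 10 scaled fragments in every library.

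Transcription factors of tissue patterning did not fall with the auxin genes. SHR1 (Os07g0586900), which specifies the endodermis and cortex, had 93.0 and 109 scaled fragments in nodal and 298 and 233 in S-type roots, a log2 difference of 1.36 (SE 0.20, adjusted p = 0.00237). SCR1, its partner, differed by 0.61 (adjusted p = 0.0276), a call lost without any 1 of the 4 libraries (0.52 to 0.68), while its close copy SCR2 differed by -0.46 (adjusted p = 0.137). Reads of such close copies may be divided between them by the authors' counting. Cytokinin response regulators split, with RR4 and RR6 lower by -1.93 and -1.09 and RR9 and RR10, again close copies, higher by 0.75 and 0.88. RR6 lost its call without either control library (-0.70 and -0.48), and RR9 and RR10 without either salt library (0.37 to 0.70).

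**Figure D3:**
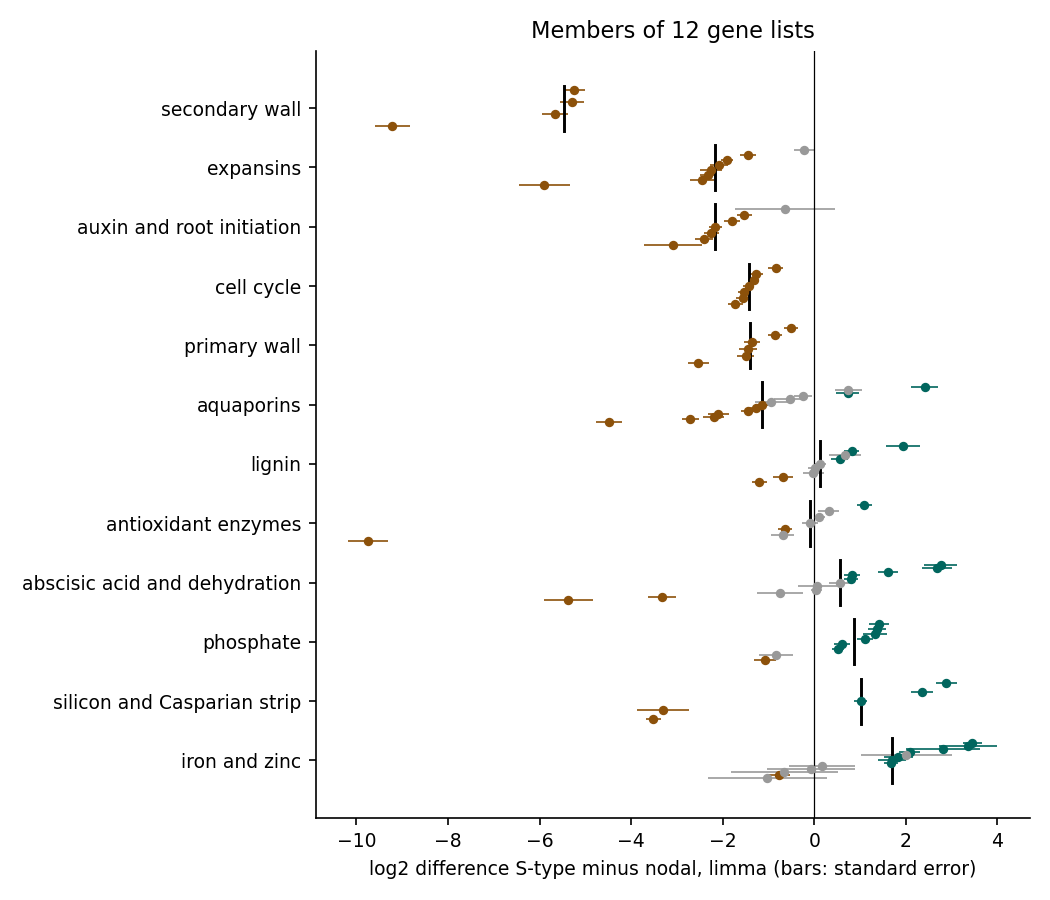
Log2 difference of S-type minus nodal roots from limma for the tested members of 12 gene lists, with bars of 1 standard error; green members were called higher, brown lower, grey neither, and the black tick is the list's median. Medians run from -5.48 for the secondary wall to 1.70 for iron and zinc, and the aquaporin, antioxidant, abscisic acid and silicon lists hold members on both sides.

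On the higher side stood the transporters that carry silicon across the exodermis and endodermis. Lsi1 (Os02g0745100, chromosome 2, 31266328 to 31269935), the channel that lets silicic acid in, had 3179 and 5662 scaled fragments in control and salt nodal roots and 21526 and 22198 in S-type roots. Lsi2 (Os03g0107300, chromosome 3, 430697 to 432874), the exporter on the inner side of the same cells, had 2159 and 4187 in nodal and 21095 and 23762 in S-type roots. Both genes were far apart between root types, with log2 differences of 2.35 (SE 0.24, adjusted p = 0.000718) and 2.88 (SE 0.23, adjusted p = 0.000425). In both, the ratio was smaller under salt, where the nodal value was higher and the S-type value moved little.

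Per length, in FPKM of the authors' deposited table, Lsi1 stood at 369 and 654 in nodal and 2533 and 2618 in S-type roots. Lsi6 (Os06g0228200), a relative of Lsi1 best known for unloading silicon from the xylem, went the other way. In the authors' deposited table it had 104 and 100 FPKM in nodal and 8.69 and 8.79 in S-type roots, and its log2 difference here was -3.52 (SE 0.16, adjusted p = 0.000235). CASP1 (Os04g0684300), a protein of the Casparian strip, had 237 and 247 scaled fragments in nodal and 481 and 506 in S-type roots, a difference of 1.01 (SE 0.13, adjusted p = 0.00167). RCN1, an ABCG transporter needed for suberin in the outer root, was lower, with 205 and 112 in nodal and 7.71 and 27.01 in S-type roots. The 5 list members thus divided into 3 higher and 2 lower, too few to set against the 27.1% and 28.0% of all tested genes.

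Genes of metal uptake were mostly higher in control. Of 14 iron and zinc members 13 were tested, 7 were higher and 1 was lower, against 27.1% and 28.0% of all tested genes. Their median was 1.70 in the fit, but 2.22 in the control libraries alone and 0.92 in the salt libraries alone. NRAMP5 (Os07g0257200), the manganese and cadmium importer of the root, had 230 and 450 scaled fragments in nodal and 3391 and 3771 in S-type roots. Its log2 difference of 3.45 (SE 0.21, adjusted p = 0.000289) was the largest in the list. HMA2, a zinc pump that loads vascular tissue, had 703 and 934 in nodal and 2615 and 2598 in S-type roots, a difference of 1.67 (SE 0.15, adjusted p = 0.000583). ZIP1, a zinc transporter, and IRO3, a repressor of the iron deficiency response, differed by 2.08 and 1.83. YSL16, a transporter of metals bound to nicotianamine, differed by 1.70. NAS3, a nicotianamine synthase, was the lower member, by -0.78 (SE 0.24, adjusted p = 0.0369), and lost its call without any 1 of the nodal libraries or without the control S-type library (-0.96 to -0.45).

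For iron acquisition genes the ratio differed between the control and the salt libraries. Grasses secrete mugineic acids, made from nicotianamine, and take up their iron complexes through YSL15. Under control NAS2 (Os03g0307200) had 535 scaled fragments in the nodal and 2312 in the S-type library, a log2 ratio of 2.11 (95% interval 1.98 to 2.25). Under salt it had 804 in nodal and 45.02 in S-type roots, a ratio of -4.13 (-4.60 to -3.75). The order of the root types was therefore opposite under the 2 treatments. NAS1 and NAAT1, of the same pathway, also reversed, with ratios of 2.22 and 1.91 under control and -3.50 and -1.56 under salt. L-type roots changed sides against nodal roots in the same way. They had 1368 scaled fragments of NAS2 under control and 106 under salt, 730 and 122 of NAS1, and 987 and 175 of NAAT1. Nodal roots had 370 and 590 of NAS1, and 472 and 399 of NAAT1. NAS1 and NAS2 neighbour each other and are close in sequence, so their counts may not be independent.

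YSL15 (Os02g0650300) kept its direction but not its size. It had 95.6 scaled fragments in nodal and 2563 in S-type roots under control, against 289 and 548 under salt. The log2 ratio was 4.73 (4.47 to 5.04) in control and 0.92 (0.73 to 1.12) in salt, and the call (2.81, SE 0.81, adjusted p = 0.0276) was lost without the control S-type library, at 1.64. YSL2 had 74.7 and 1801 under control and 4.98 and 26.1 under salt, so that both root types were far lower under salt. NRAMP1 had 55.6 in nodal and 1138 in S-type roots under control, while under salt it had 37.3 and 30.6, a ratio of -0.28 (-0.97 to 0.39). L-type roots had 1709 of YSL15, 898 of YSL2 and 392 of NRAMP1 under control, and 726, 10.1 and 24.8 under salt. With 1 library per group, no test of these changes of ratio could be made.

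**Figure D4:**
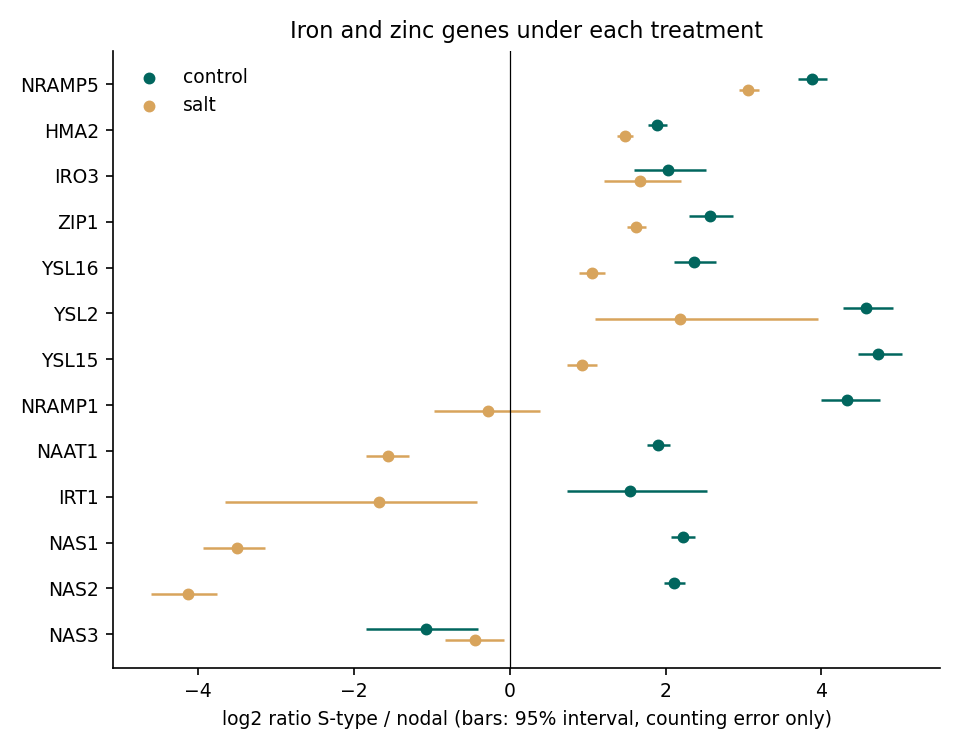
Log2 ratio of S-type over nodal roots for 13 iron and zinc genes under control (green) and salt (tan), with bars for the 95% interval, which covers counting error only. From NRAMP5 to YSL15 both ratios lie above 0, while NAS1, NAS2, NAAT1 and IRT1 lie above 0 in control and below 0 in salt.

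Of 8 tested phosphate genes 6 were higher and 1 was lower, against 27.1% and 28.0% of all tested genes, with a median of 0.86. PT1 (Os03g0150600), a phosphate transporter of the root, had 550 and 575 scaled fragments in nodal and 1741 and 1231 in S-type roots, a log2 difference of 1.37 (SE 0.20, adjusted p = 0.00244). PHO1;2, which exports phosphate into the xylem, differed by 1.11 (SE 0.17, adjusted p = 0.00294), and SPX2, a phosphate sensor protein, by 1.32, or by 1.06 (adjusted p = 0.0582) without the salt nodal library. PT4 was lower by -1.08, and lost its call without the salt nodal (-0.97) or the control S-type library (-0.96). SPX1 and PHR2, of the same signalling pathway, were higher by 0.61 and 0.52. SPX1 lost its call without any 1 of the 4 libraries (0.46 to 0.74), and PHR2 without any of them but the control nodal one (0.36 to 0.60). PT8 had 644 and 698 in nodal and 269 and 527 in S-type roots (-0.85, adjusted p = 0.0989).

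Of 9 tested nitrogen genes 3 were higher, 3 lower and 3 neither, near the 27.1% and 28.0% of all tested genes, with a median of 0.49. NRT2.3, a high-affinity nitrate transporter, had 20.9 and 42.3 scaled fragments in nodal and 81.0 and 249 in S-type roots, and NAR2.1, the partner protein of such transporters, 111 and 117 against 418 and 355. Their log2 differences were 2.21 (SE 0.28, adjusted p = 0.00149) and 1.73 (SE 0.16, adjusted p = 0.000597). NIA1, a nitrate reductase, was the third higher member, by 0.86 (SE 0.21, adjusted p = 0.0147), and lost its call without the salt nodal (0.63) or the salt S-type library (0.66). Glutamine synthetases and the ammonium transporter AMT1;1 were lower or did not pass. GS2 had 990 and 696 in nodal and 207 and 193 in S-type roots (-2.06, adjusted p = 0.000353), GS1;1 differed by -1.53, and AMT1;1 by -1.19. AMT1;1 lost its call without the control nodal library (-0.75) and without either S-type library (-1.27 and -1.08). GS1;2, the cytosolic enzyme of root ammonium assimilation, had 3968 and 4535 in nodal and 5597 and 6475 in S-type roots (0.49, SE 0.31, adjusted p = 0.22). Its log2 ratio was 0.50 in control and 0.51 in salt, while L-type roots had 2092 and 5588, which enter the shared error. Fd-GOGAT and NADH-GOGAT2, glutamate synthases, differed by 0.35 and 0.53 and did not pass.

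Of 9 genes of sodium and potassium transport 5 were tested, of which 2 were higher and none lower, with a median of -0.11; 5 members are too few to set against the 27.1% and 28.0% of all tested genes. HAK1 (Os04g0401700), a high-affinity potassium importer, had 651 and 661 scaled fragments in nodal and 1772 and 1697 in S-type roots, a log2 difference of 1.39 (SE 0.12, adjusted p = 0.000512). CIPK24, the kinase of the salt overly sensitive pathway, was higher by 1.03 (SE 0.15, adjusted p = 0.0023). AKT1 and CIPK23, a potassium channel and its kinase, differed by -0.11 and -0.17 and did not pass. HKT1;5, which withdraws sodium from the xylem, had 54.7 in nodal and 23.1 in S-type roots under control and 19.1 and 33.3 under salt. HKT2;1, a sodium and potassium transporter, did not pass the filter, with 76.5 and 36.5 in nodal against 1.29 and 1.80 in S-type roots.

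Of 13 tested aquaporins, the channels that pass water through membranes, 7 were lower and 2 higher, against 28.0% and 27.1% of all tested genes, with a median of -1.15. TIP2;2 (Os06g0336200, chromosome 6, 13407319 to 13408715), a channel of the vacuolar membrane, had 7577 and 5164 scaled fragments in nodal and 219 and 362 in S-type roots. Its log2 difference of -4.48 (SE 0.29, adjusted p = 0.000307) was the largest of the family. TIP1;1 and TIP2;1 were lower by -2.09 and -2.71, and the plasma membrane channels PIP1;1, PIP1;2 and PIP2;1 by -1.44 to -1.15. For PIP2;1 the size depended on the measure. In scaled fragments it had 4932 and 2979 in nodal and 1643 and 1234 in S-type roots. In FPKM of the authors' deposited table the gap was smaller, with 1279 and 547 against 1086 and 319. TIP4;1 (Os05g0231700), another vacuolar channel, was higher, with 110 and 296 in nodal and 918 and 1033 in S-type roots (2.41, SE 0.29, adjusted p = 0.00116). PIP2;3 was higher by 0.73 (adjusted p = 0.0477) and lost its call without the control nodal (0.31) or the control S-type library (0.35).

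Of 11 tested genes of abscisic acid and dehydration 5 were higher and 2 lower, against 27.1% and 28.0% of all tested genes, with a median of 0.56. Together the called members made up a share near that of all tested genes. DREB1C and NAC6, transcription factors of the dehydration and cold response, were higher in S-type roots without salt and with it. NAC6 (Os01g0884300) had 402 and 488 scaled fragments in nodal and 2770 and 2999 in S-type roots, and DREB1C (Os06g0127100) 129 and 135 against 926 and 887. Their log2 differences were 2.68 (SE 0.33, adjusted p = 0.00124) and 2.76 (SE 0.35, adjusted p = 0.00149). ABA8ox1 and ABA8ox2, which break abscisic acid down, were higher by 1.61 and 0.82, the latter only while both control libraries were kept (0.71 or 0.85 without 1 of them). P5CS2 (Os01g0848200), an enzyme of proline synthesis, was lower, with 333 and 623 in nodal and 2.57 and 33.3 in S-type roots (-5.38, SE 0.53, adjusted p = 0.000704). Its relative P5CS1 differed by 0.04 (adjusted p = 0.782). SalT, a lectin named for its response to salt, was lower by -3.33 (SE 0.31, adjusted p = 0.000594).

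Some enzyme families had copies that differed in opposite directions. Of 7 antioxidant genes 1 was higher and 2 were lower, near the 27.1% and 28.0% of all tested genes, with a median of -0.10. APX1, an ascorbate peroxidase, was lower by -0.64 (SE 0.15, adjusted p = 0.0124), a call lost without any 1 of the 4 nodal and S-type libraries (-0.70 to -0.58). CATA (Os02g0115700, chromosome 2, 825041 to 827640), a catalase, had 3797 and 2008 scaled fragments in nodal and 1.29 and 3.60 in S-type roots, which are 1 and 4 fragments. The log2 ratio was -10.70 in control (95% interval -16.83 to -9.05) and -8.77 in salt (-11.00 to -7.77). CATB (Os06g0727200), another catalase, was higher in S-type roots, with 2885 and 3877 in nodal and 6733 and 7656 in S-type roots (1.09, SE 0.16, adjusted p = 0.00259). In FPKM of the authors' deposited table, CATA stood at 454 in control nodal roots beside 238 for CATB, while in control S-type roots the values were 0.24 and 558.

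Alcohol dehydrogenases, the last enzymes of ethanol fermentation, were arranged likewise. ADH1 (Os11g0210300) had 416 and 264 scaled fragments in nodal and 3.86 and 8.10 in S-type roots, while its neighbour ADH2 (Os11g0210500) had 627 and 1079 against 4522 and 5646. The log2 differences were -5.66 (SE 0.41, adjusted p = 0.000366) and 2.60 (SE 0.19, adjusted p = 0.000381). SUS4, a sucrose synthase of the same list, was higher by 1.23. The list's 5 tested members, 2 higher and 1 lower, are too few to set against the 27.1% and 28.0% of all tested genes. Metallothioneins, small proteins that bind metals through cysteines, were looked at after MT1c had been seen among the abundant higher genes. MT1c (Os12g0571100) had 1143 and 1440 in nodal and 22838 and 6555 in S-type roots, and MT2B (Os05g0111300) 691 and 1013 against 42.4 and 34.2. MT1c was higher by 3.24 (SE 0.45, adjusted p = 0.00202) and MT2B lower by -4.43 (SE 0.22, adjusted p = 0.000241). MT1b lies beside MT1c, reads may be divided between them, and its lower call (-4.08, adjusted p = 0.0229) was lost without the salt S-type library, at -2.29.

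**Figure D5:**
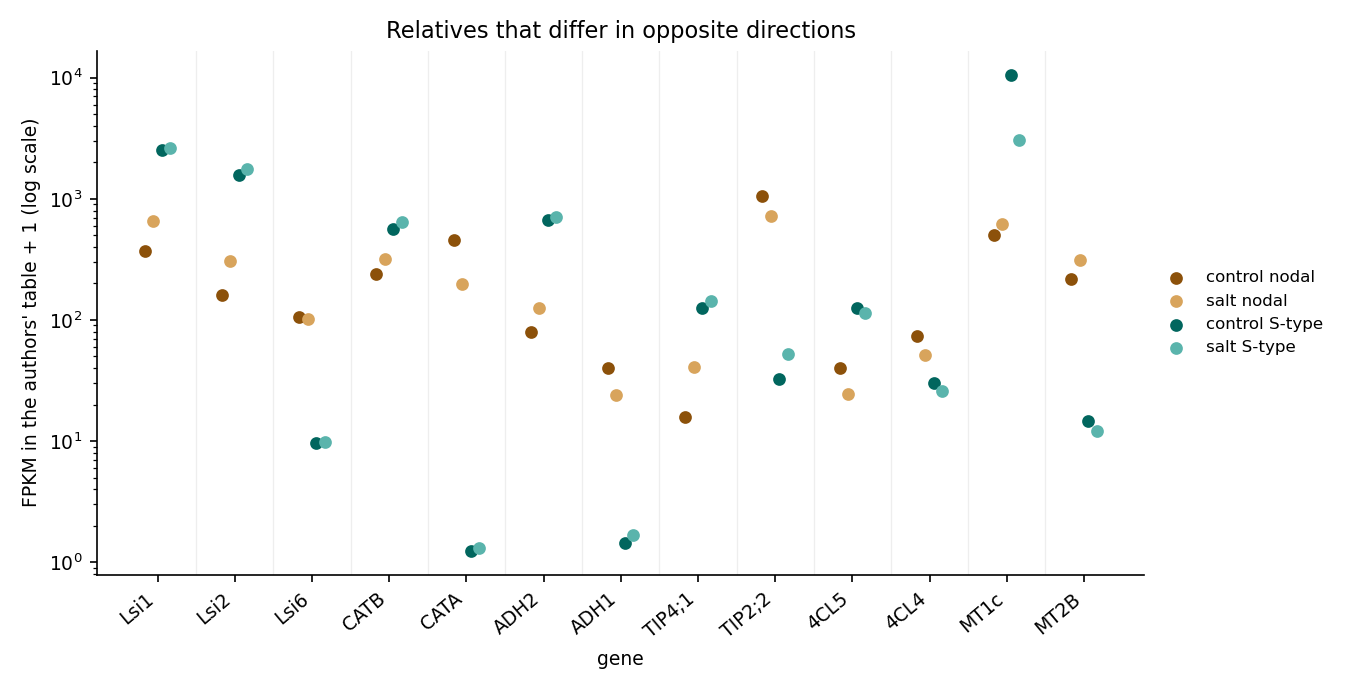
FPKM plus 1 in the authors' deposited table, on a log axis, in the 4 libraries for relatives that differ in opposite directions. Lsi2, the silicon exporter, is shown beside the relatives Lsi1 and Lsi6. Brown points are nodal and green points S-type roots. S-type points lie above nodal points for Lsi1, Lsi2, CATB, ADH2, TIP4;1, 4CL5 and MT1c and below them for Lsi6, CATA, ADH1, TIP2;2, 4CL4 and MT2B.

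Ranked by the smaller of the 2 ratios, the most S-type genes carry no checked name. Os02g0583700 (chromosome 2, 22509550 to 22510620) had 6.08 and 9.12 scaled fragments in nodal and 39834 and 17596 in S-type roots. Os11g0428800 (chromosome 11, 13723177 to 13724624) had 24.3 and 53.1 in nodal and 67555 and 62783 in S-type roots, more than any other gene at least 4-fold higher. Both were rare in nodal roots and among the most abundant messages of S-type roots, with log2 differences of 11.60 (SE 0.55, adjusted p = 0.000241) and 10.77 (SE 0.48, adjusted p = 0.000235). Their L-type values lay between, at 777 and 187 for Os02g0583700 and 1667 and 738 for Os11g0428800.

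GOS9 (Os06g0169001), first isolated as a root-specific gene of rice, was the only gene with a checked name among the 12 leading higher genes. It had 36.5 and 78.8 scaled fragments in nodal and 5885 and 13559 in S-type roots, a log2 difference of 7.34 (SE 0.29, adjusted p = 0.000235). The other 9 had a smaller ratio between 6.65 and 9.10 on the log2 scale. Among the most abundant was OCI (Os01g0803200), oryzacystatin I, an inhibitor of cysteine proteases, with 751 and 1157 in nodal and 24103 and 12870 in S-type roots (4.22, SE 0.40, adjusted p = 0.000608). WNK9, a kinase of the WNK family, and TPP1, a trehalose-6-phosphate phosphatase, were higher by 3.87 and 2.38.

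At the lower end, BC1 and CATA ranked behind Os05g0135500, which had 1617 and 878 scaled fragments in nodal and 0 and 0.90 in S-type roots. SWEET1a (Os01g0881300), of the SWEET family of sugar transporters, had 1446 and 837 in nodal and 0 and 2.70 in S-type roots. In control it was at least 375-fold lower, and in salt the log2 ratio was -7.82 (95% interval -10.55 to -6.72). GLU5 and GLU2, endo-glucanases of the cell wall, were lower by -6.69 and -2.85. The most abundant lower gene at least 4-fold apart was Os02g0662000 (chromosome 2, 26804988 to 26805820), which had 13584 and 8868 in nodal and 378 and 414 in S-type roots (-4.80, SE 0.22, adjusted p = 0.000235).

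L-type laterals mostly took a place between the other root types. Of the 2601 genes at least 2-fold higher in S-type roots, 2089 (80.3%) had an L-type value between nodal and S-type roots under both treatments. Of the 2622 at least 2-fold lower, 2017 (76.9%) did. L-type roots lay beyond S-type roots under both treatments in 21 and 13 genes. These shares describe genes chosen for a wide gap, in which an intermediate value is the likeliest, and were not tested.

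Some genes had ratios far apart between control and salt. From control to salt the ratio rose at least 2-fold for 695 of the 16602 genes and fell at least 2-fold for 652. With 1 library per group, an effect of salt and a difference between libraries cannot be told apart here. At least 2-fold differences in opposite directions were rare, with 9 genes higher in S-type roots under control and lower under salt, and 2 the reverse. The 4 largest moves in each direction included genes found in only 1 of the 4 compared libraries. Os11g0262600 had 199 scaled fragments in control S-type roots and none in the other 3, but L-type roots had 61.4 in control and 2.76 in salt. Os12g0550600 had 52.2 in salt S-type roots and none in the other 3 or in L-type roots. NAS2 was the most abundant of these 8 genes.

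The authors' own calls were far fewer. In the authors' deposited table, 233 of 21124 genes differed between S-type and nodal roots in control and 123 of 21100 in salt. Of the calls in the authors' deposited table, 153 of the 233 and 69 of the 123 had no fragment in 1 library of the pair. The 65 genes the authors' deposited table calls in both pairs comprised 33 higher and 32 lower in S-type roots. The fit here called 49 of them in the same direction, and the other 16 did not pass the filter. CATA has q-values of 0.999 and 0.835 in the authors' deposited table, and TIP2;2 0.0199 in both pairs.

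Some lists gave little to compare. Of 9 diterpenoid genes 1 was tested and not called, neither of the 2 strigolactone genes was tested, and the ethylene synthesis genes ACS1 and ACS2 did not pass. Markers of other tissue were low. Of the 3 green tissue genes, CAB1R, CAB2R and RBCS together had 249 and 74.6 scaled fragments in nodal and 65.6 and 26.1 in S-type roots, with RBCS at 0 in both S-type libraries. Only EXPA17 of the 4 root hair markers has a checked name. No gene that defines S-type laterals was used to check the labels.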

How the data were processed

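Strand-specific mRNA libraries of the root types were compared. Per the submitters' processing notes, reads were handled on build IRGSP-1.0 with Cufflinks and Cuffdiff (both 2.2.1), TopHat2 2.0.11 over Bowtie, and Trimmomatic 0.32; roles and settings are not given in the sources used here. The deposited signal is a fragment count times 1 factor per library: 99.94% to 99.97% of values were whole multiples within 0.02 fragments, so counts could be recovered. FPKM values, p-values and q-values are the authors' own, from their deposited Cuffdiff table.

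Signals were TMM-scaled (factors 0.986 to 1.01) and tested as log2 of the value plus 1 with limma 3.58.1 with a trend (R 4.3.3), an additive model of root type and treatment over all 6 libraries with 2 residual degrees of freedom, after filterByExpr by treatment. Genes at 0 in every library of a root type could fail this filter. Ratios of single pairs used the deposited values plus 1, with exact conditional binomial 95% intervals (scipy). Fragments are not independent molecules. Bounds used a floor of 3 fragments. The procedure was tested on simulated data. Alternatives included edgeR 4.0.16 and DESeq2 1.42.0 on recovered counts.

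The files pair no identifier with a symbol. Of 231 recalled symbols, 162 matched a RefSeq gene of assembly ASM3414082v1 at the place expected from neighbouring genes, and 17 of 21 added after values were seen. Members and lists were chosen with earlier results of these data known. Named genes are checked list members, the 12 leading genes per direction by the smaller ratio, the 6 most abundant at least 4-fold apart, and the 4 with the largest change of ratio.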

Additional observations from a re-analysis of the deposited data

Results flagged for a closer look

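For 12 genes of the lists the ratio of S-type over nodal roots had opposite signs in control and in salt, with both 95% counting intervals away from 0. With 1 library per group the difference was not tested. On the log2 scale, the ratio in salt minus that in control was -6.24 for NAS2, -5.72 for NAS1, -3.46 for NAAT1 and -3.22 for IRT1, all of iron acquisition. For each of these iron genes the L-type value also lay above the nodal value in control and below it in salt. The auxin carrier PIN9 moved by -3.83, with 29.5 scaled fragments in nodal and 73.3 in S-type roots under control and 52.2 and 8.10 under salt. The sodium transporter HKT1;5 moved by 1.98, and PDR9, an ABC transporter added after its values were seen, by 4.10. Among water channels TIP1;2 moved by -1.51 and PIP2;2 by -0.65. Smaller moves were -0.43 for HCT1, -0.34 for COMT1 and 0.50 for APX2.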

How the results depend on the processing

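Of the 108 list members called, none changed direction under any of 16 alternative fits. Without the control nodal library the counts fell to 3148 higher and 3281 lower; over the 6 fits without 1 library they ran from 3148 to 5811 and from 3281 to 6117. DESeq2 on recovered counts called 4484 and 4548, and lost YSL15 (adjusted p = 0.0591) among 6 list members. The fit pairs the root types by treatment; without the treatment term it called 5082 higher and 5344 lower, and 9 members lost their call, YSL2 (adjusted p = 0.297), ZIP1 (0.0909) and MT1b (0.054) among them. Leaving out 1 of the 4 nodal or S-type libraries cost 11 to 16 members their call, and 1 L-type library none.

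Of genes at least 2-fold lower under both treatments there were 3954 with a minimum of 10 and 1298 with a minimum of 200. At 4-fold there were 902 higher and 875 lower, by construction. Chosen after the data were seen, a minimum of 200 left 200 genes whose ratio rose at least 2-fold under salt and 283 whose ratio fell; a pseudocount of 10 left 457 and 417. For sodium and potassium transport the list's median was -0.11 in the fit, and 0.77 in the salt libraries alone; for iron and zinc it was 1.70, and 2.22 in control and 0.92 in salt alone; the cause was not tested. Values under a few fragments, such as QHB or HKT2;1, are limited by depth.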
